A study of Mus musculus with 2 samples.

Results

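The smooth muscle contractile genes Acta2, Myh11, Tagln, Actg2, Actc1, Cnn1, Myl9, Mylk, Lmod1 and Smtn were followed through the mesenchymal cells of adult mouse lung and the mural cells of adult mouse brain. These 10 genes were taken as a named list, with no threshold on a measured value, from the 25814 genes with a count in either library, and all 10 had counts in both libraries. Their levels were read in 5 cell classes, which were lung smooth muscle, pericyte, myofibroblast and matrix fibroblast cells and brain mural cells.

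Smooth muscle shortens when myosin filaments pull on actin filaments anchored in the cytoplasm and at the membrane. Calcium bound to calmodulin activates a kinase that phosphorylates the regulatory light chain of myosin, and a phosphatase reverses the step. Pericytes lie on capillaries in the same mural position that smooth muscle takes on larger vessels, and myofibroblasts carry smooth muscle actin in the lung interstitium. In the list, Acta2 encodes alpha smooth muscle actin, Actg2 gamma smooth muscle actin and Actc1 the alpha actin best known from heart muscle. Myh11 encodes the smooth muscle myosin heavy chain, Myl9 a regulatory light chain and Mylk the light chain kinase. Tagln (transgelin) and Cnn1 (calponin) bind actin filaments, Lmod1 (leiomodin) starts new actin filaments, and Smtn (smoothelin) binds actin in contractile smooth muscle.

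The study sorted cells with strong green fluorescence from mice that carry GFP under Nestin regulatory elements (Nes-GFP), and profiled brain and lung Nes-GFP+ cells with droplet 3′ single-cell RNA sequencing to search for neural stem cells. There were 2 samples, brain Nes-GFP+ and lung Nes-GFP+, with 1 library each from untreated adult mice of about 6 weeks. The labels name the strain C57BL/6, the methods describe a line kept by breeding with CD1 or mixed stock, and the number of mice pooled was not given in the sources used here. Because sorting kept cells in which the reporter was bright, the cells of each type are those inside the GFP gate and not a census of the tissue, and GFP in lung was not limited to neural cells. With 1 library per tissue, no test between tissues or classes could be made, every interval below covers counting error only, and tissue and library cannot be told apart.

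Transcription of many of these genes is known to depend on serum response factor, which binds a motif called the CArG box. RefSeq promoter windows of 300 bases (250 before and 50 after the annotated start, GRCm38.p6) were held for 7 of the 10 genes, and 2 of the 7, Actc1 and Myl9, contained the strict 10-base CArG box on either strand, which occurred in 535 of 32851 promoter windows (1.63%). These 2 upstream stretches are printed because they hold the box and because the levels of the 2 genes ran apart below, Actc1 being at 1.99 counts per 1000000 UMIs or less in pericyte-like and myofibroblast-like cells and Myl9 at 1010 and 638 in the same classes. The box is in capitals, and neither stretch touches an annotated exon: the Myl9 stretch ends right before the gene, and the Actc1 stretch lies inside the GENCODE gene span, upstream of the RefSeq start and between annotated exons. A match is a description of the letters and not evidence of binding, and the lack of a match in the windows of the other genes says only that the letters are not in those windows. The Actc1 stretch lies on the minus strand at chr2:114052888-114053125 with the first base of the box at position -47 from the RefSeq start, and the Myl9 stretch lies on the plus strand at chr2:156775214-156775419 with the first base of the box at -161.
Actc1 upstream, 5′ to 3′: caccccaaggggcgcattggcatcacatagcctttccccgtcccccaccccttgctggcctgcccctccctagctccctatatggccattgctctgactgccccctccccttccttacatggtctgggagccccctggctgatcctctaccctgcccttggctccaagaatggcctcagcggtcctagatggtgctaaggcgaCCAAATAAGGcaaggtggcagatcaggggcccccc
Myl9 upstream, 5′ to 3′: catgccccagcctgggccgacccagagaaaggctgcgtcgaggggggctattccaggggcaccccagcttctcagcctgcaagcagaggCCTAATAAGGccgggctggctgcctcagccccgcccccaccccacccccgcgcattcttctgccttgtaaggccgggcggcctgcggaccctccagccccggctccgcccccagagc

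Positions are in GRCm38. Acta2 occupies chr19:34241090-34255590, Actg2 chr6:83512905-83536265 and Actc1 chr2:114047282-114053548, all on the minus strand. Myh11 spans chr16:14194535-14291372 on the minus strand and Mylk chr16:34745210-35002420 on the plus strand, the longest of the list at 257.2 kb, and Myl9 lies at chr2:156775420-156781658 on the plus strand. Tagln is at chr9:45929619-45936058 on the minus strand, Cnn1 at chr9:22099216-22109630 and Lmod1 at chr1:135324807-135368065 on the plus strand, and Smtn at chr11:3517523-3540612 on the minus strand. Exons of Tagln overlap those of Pcsk7 and Gm48529 on the opposite strand, those of Mylk overlap E130310I04Rik and Gm21691, and those of Smtn overlap Gm11946 and Gm11947. Whether the counting used strand is not given in the sources used here, so reads of these 3 genes and their partners may not have been kept apart. The actins are close relatives, but no 60-base window in the last 500 bases of an Acta2, Actg2 or Actc1 transcript was identical to one of another actin.

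Of 4640 brain and 5981 lung barcodes, 4151 and 5608 passed the filter stated in the study's methods, with a median of 4209 and 5585 UMIs (unique molecular identifiers, each standing for 1 captured transcript). The study's own cell maps show 4640 brain and 5981 lung cells, as many as all barcodes, of which 418 and 307 had 4000 or more genes. The libraries shared 15 barcodes, 11 of them among the cells kept, and Scrublet called 1.06% of brain and 1.32% of lung cells doublets, which were kept. Cells were clustered without the 10 genes and their pathway genes, and clusters were given a class name from marker lists that contain no member. The classes held 101 lung smooth muscle-like, 2007 pericyte-like, 1111 myofibroblast-like and 693 matrix fibroblast-like cells and 169 brain mural-like cells. The brain mural-like cells carried all 11 of their markers in at least 20% of cells, pericyte-like 11 of 12, myofibroblast-like 9 of 10 and matrix fibroblast-like 10 of 16. The smooth muscle-like cells met the rule with 7 of 16 markers, and some defining ones were scarce: Casq2 and Pde4c were at 0, and Pln, the inhibitor of the sarcoplasmic calcium pump, had a UMI in 5.0% of cells, against 68.3% for Map3k7cl and 77.2% for Nexn. Of the 7, Rasl12 was no more frequent in the class than in the rest of the lung (29.7% against 31.8% of cells), and Mustn1 (54.5%) is also a myofibroblast naming marker, found in 91.9% of myofibroblast-like cells. Read cell by cell, the same lists placed only 3 of the 101 cells in the smooth muscle class, so the name rests on the cluster as a whole. Their leading genes were Grp, Fbxl22, Sh3bgr, Map3k7cl and Sfrp2. Several lung clusters stayed unnamed, and 4 of them that bear on the contractile genes are described below by number.

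The contractile genes were most abundant in the lung smooth muscle-like cells. Levels are counts per 1000000 UMIs of a class (CPM). The 10 genes together took 3.91% of all UMIs there (39063.8 CPM), 8100 CPM in myofibroblast-like, 2974.8 CPM in pericyte-like, 2092 CPM in brain mural-like and 779 CPM in matrix fibroblast-like cells. Lung endothelial-like cells, which should lack most of these transcripts, had 431 CPM and brain endothelial-like cells 146 CPM. The order of the classes was not the same for every gene, and Mylk and Smtn differed least between smooth muscle-like, myofibroblast-like and pericyte-like cells.

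**Figure D1:**
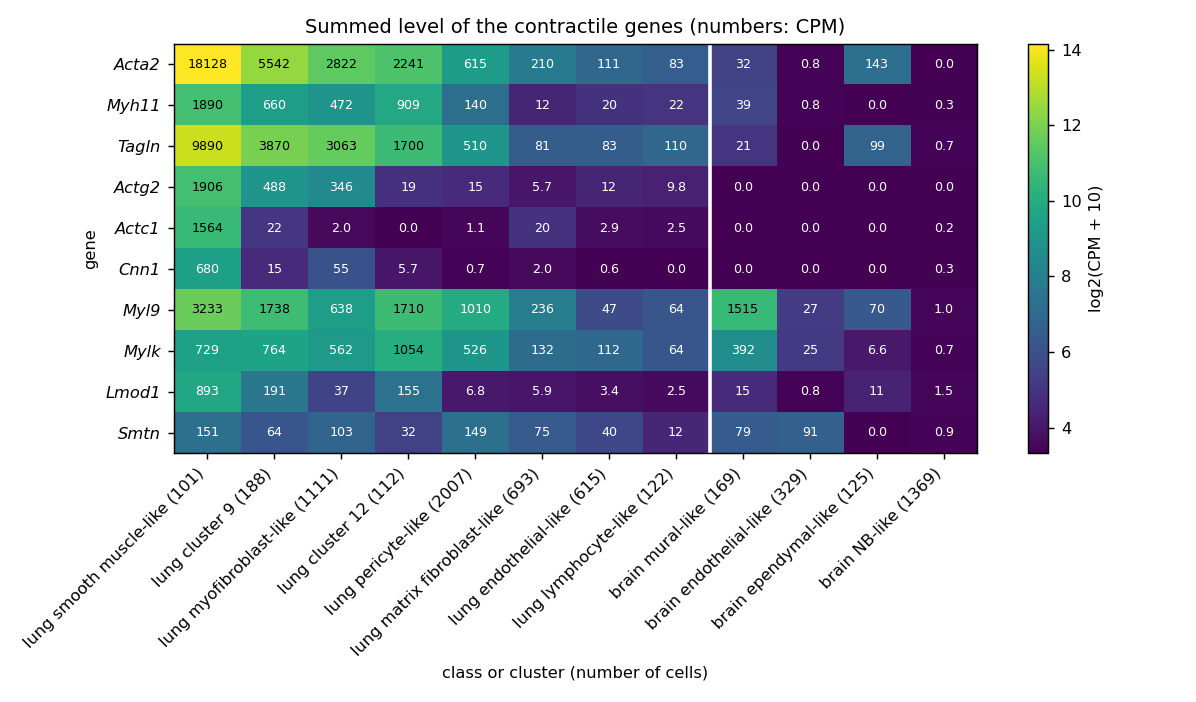
Heat map of the summed level of each contractile gene (rows) in lung and brain classes and clusters (columns, number of cells in parentheses, the white line parting lung from brain), coloured by log2(CPM + 10) with the CPM printed in each cell. Clusters 6 and 8 are not shown. Of the columns drawn, the lung smooth muscle-like one is highest for 9 of the 10 genes, the exception being Mylk. For Smtn the lead over pericyte-like cells lies within counting error (ratio 1.01, 0.790 to 1.27). Brain mural-like cells show Myl9 and Mylk but 0 for Actg2, Actc1 and Cnn1.

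The actins came first. Acta2 stood at 18128.5 CPM (17762 to 18501, 95% exact Poisson interval) in smooth muscle-like cells, 2822 CPM in myofibroblast-like, 615 CPM in pericyte-like, 210 CPM in matrix fibroblast-like and 32.1 CPM in brain mural-like cells. No neighbouring intervals in that order overlapped. The lung endothelial-like and lymphocyte-like cells had 111 and 83.3 CPM, of which 63.9% and 64.7% came from 5 cells each. Actg2 stood at 1906 CPM in smooth muscle-like and 346 CPM in myofibroblast-like cells, then 14.9 CPM in pericyte-like, 5.68 CPM in matrix fibroblast-like and 0 in brain mural-like cells. The pericyte-like value of Actg2 lay close to the 11.97 CPM of endothelial-like cells, with a ratio of 1.24 (0.878 to 1.79), but 78.6% of the endothelial-like UMIs lay in 5 of 615 cells against 26.9% in 5 of the pericyte-like cells. Without thinning, 4.78% of pericyte-like and 2.28% of endothelial-like cells had an Actg2 UMI. Actc1 stood at 1564 CPM in smooth muscle-like cells and at 19.7 CPM in matrix fibroblast-like, 1.99 CPM in myofibroblast-like, 1.14 CPM in pericyte-like and 0 in brain mural-like cells, the intervals of the last 3 classes overlapping.

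Of the myosin genes and their kinase, Myh11 was at 1890 CPM in smooth muscle-like, 472 CPM in myofibroblast-like, 140 CPM in pericyte-like, 38.5 CPM in brain mural-like and 11.7 CPM in matrix fibroblast-like cells, with 19.95 CPM in endothelial-like cells, where 54.3% of the UMIs lay in 5 cells. Myl9 was at 3233 CPM in smooth muscle-like, 1515 CPM in brain mural-like, 1010 CPM in pericyte-like, 638 CPM in myofibroblast-like and 236 CPM in matrix fibroblast-like cells. Myl9 thus placed brain mural-like and lung pericyte-like cells above the myofibroblast-like cells, the reverse of Acta2, Tagln and Myh11. Mylk ran from 729 CPM in smooth muscle-like to 562 CPM in myofibroblast-like, 526 CPM in pericyte-like, 392 CPM in brain mural-like and 132 CPM in matrix fibroblast-like cells. The light chain kinase was also found in endothelial-like cells, at 112 CPM.

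Among the actin-binding members, Tagln was at 9890 CPM in smooth muscle-like, 3063 CPM in myofibroblast-like, 510 CPM in pericyte-like, 80.9 CPM in matrix fibroblast-like and 21.4 CPM in brain mural-like cells. Endothelial-like and lymphocyte-like cells had 82.7 and 110 CPM of Tagln, of which 63.8% and 84.4% came from 5 cells each, and by share of cells thinned to equal depth Tagln was seen in 6.55% (4.82 to 8.67) of matrix fibroblast-like and 2.62% (1.51 to 4.22) of endothelial-like cells. Cnn1 was at 680 CPM in smooth muscle-like and 55.3 CPM in myofibroblast-like cells, and at 1.95, 0.667 and 0 CPM in matrix fibroblast-like, pericyte-like and brain mural-like cells, whose intervals overlapped. The myofibroblast-like value pools 87.7 CPM in cluster 2 and 12.9 CPM in cluster 4, a ratio of 6.82 (4.91 to 9.69). Of 9 members tested between these clusters, only Cnn1 passed 4-fold (1.62% of genes tested were higher and 1.06% lower). Lmod1 was at 893 CPM in smooth muscle-like, 37.1 CPM in myofibroblast-like and 14.98, 6.76 and 5.86 CPM in brain mural-like, pericyte-like and matrix fibroblast-like cells, the last 3 again overlapping. Smtn was the flattest of the list, at 151 CPM (119 to 188) in smooth muscle-like and 149 CPM (142 to 157) in pericyte-like cells, 103 CPM in myofibroblast-like, 79.2 CPM in brain mural-like and 75.1 CPM in matrix fibroblast-like cells.

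Smooth muscle-like cells were first compared with pericyte-like cells, the largest lung class. A gene was called higher or lower when its CPM ratio passed 4-fold, a count of 0 being taken at 3 UMIs. All 10 members had the minimum of 10 UMIs, and 7 were higher in smooth muscle-like cells and 0 lower, where 6.66% of the 12982 genes tested were higher and 6.39% lower. The median ratio was 24.4 over the members and 0.939 over all genes tested. Actc1 was 1368-fold (779 to 2658) and Cnn1 1020-fold (490 to 2556) higher, ratios that rest on 12 and 7 UMIs in pericyte-like cells. Lmod1 was 132-fold, Actg2 128-fold, Acta2 29.5-fold (28.5 to 30.4), Tagln 19.4-fold and Myh11 13.5-fold higher. Myl9 differed by 3.20-fold (3.04 to 3.37) and Mylk by 1.39-fold (1.24 to 1.54), and the Smtn ratio was 1.01 (0.790 to 1.27), an interval that spans 1. With marker gates applied to each cell, which left 5 smooth muscle-like cells, the same 7 genes stayed higher and Myl9 joined them at 4.10-fold, but Actc1 was at 64.2-fold, Cnn1 26.0-fold, Lmod1 16.9-fold, Actg2 14.5-fold, Acta2 11.9-fold, Tagln 10.8-fold and Mylk 3.11-fold. Actc1 rose to 2443-fold with the contractile genes kept for clustering. Without the upper limit of genes per cell or at resolution 0.4 no smooth muscle-like class was found, so the comparison has no value there. With clusters 9 and 12 counted as pericyte-like, Myh11 was at 8.59-fold. Cluster 9 alone held 525 Actg2, 205 Lmod1, 24 Actc1 and 16 Cnn1 UMIs, against 156, 71, 12 and 7 in the pericyte-like cells. The ratios of these genes were therefore also smaller in that setting, though still past 4-fold.

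Against myofibroblast-like cells the contrast was smaller. Smooth muscle-like cells were higher in 7 of 10 members and lower in 0 (4.64% and 5.43% of 12774 genes tested), with a median ratio of 5.29 against 0.908 over all genes. Actc1 (785-fold, 473 to 1409), Lmod1 (24.1-fold) and Cnn1 (12.3-fold) parted these 2 classes most. Acta2 was 6.42-fold, Actg2 5.51-fold, Myl9 5.07-fold and Myh11 4.01-fold (3.73 to 4.30) higher, the last within its interval of the threshold, and Tagln stayed under it at 3.23-fold. Against matrix fibroblast-like cells 9 of 10 were higher and 0 lower (4.72% and 4.31% of 12257 genes), with a median of 104 against 1, Smtn being the exception at 2.004-fold.

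Myofibroblast-like cells carried most of the list above matrix fibroblast-like cells. Of the 10 genes 7 were higher (6.24% of 13769 genes tested) and 1, Actc1, was lower (6.18%), with a median ratio of 9.88 against 1.22. Actg2 was 60.9-fold (43.0 to 89.3), Myh11 40.3-fold, Tagln 37.8-fold, Cnn1 28.3-fold, Acta2 13.4-fold, Lmod1 6.33-fold and Mylk 4.25-fold higher, and Myl9 and Smtn were at 2.71 and 1.37. The Mylk interval (3.93 to 4.60) spans the threshold, and Mylk passed it in 7 of 13 other settings. With called doublets removed and the cells clustered and named again, Myh11 was at 16.4-fold. That setting left 668 myofibroblast-like and 759 matrix fibroblast-like cells, so the make-up of the classes changed as well. Gates applied to each cell took Myh11 to 102-fold, Actg2 to 104-fold and the Actc1 ratio to 0.766, which ends that call. Actg2 was at 38.7-fold without the upper limit of genes, Tagln at 25.2-fold likewise, and Cnn1 ran from 13.7-fold with each cell weighted equally to 44.7-fold with the contractile genes kept for clustering. The last of these settings named only 662 cells myofibroblast-like. In the clusters the Actc1 ratio was 0.101 (0.0548 to 0.174), but 61.3% of the 111 Actc1 UMIs of the matrix fibroblast-like cells came from 5 of 693 cells. The 7 cardiac genes with counts summed to 180 CPM in matrix fibroblast-like and 12.9 CPM in myofibroblast-like cells, and their part in the Actc1 ratio was not tested. Above pericyte-like cells, myofibroblast-like cells were higher in 5 members and lower in 0 (7.42% and 5.61% of genes tested), with Cnn1 at 82.9-fold and Actg2 at 23.3-fold, whereas Myl9 was at 0.632 (0.610 to 0.654) and Smtn at 0.690.

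**Figure D2:**
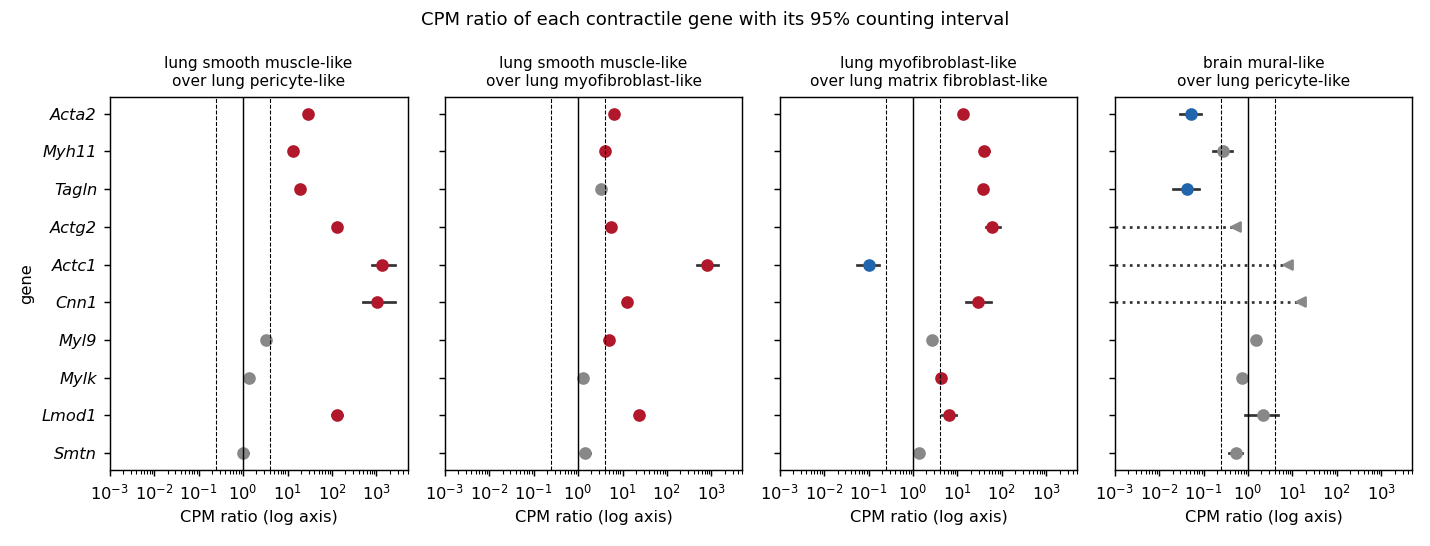
CPM ratio (x axis, log scale) of each contractile gene (y axis) in 4 class comparisons, as a point with its 95% counting interval, red for a ratio over 4-fold, blue for a ratio under the inverse of 4, and a left-pointing triangle with a dotted line for the bound of a gene with 0 UMIs in the first class; solid line at 1, dashed lines at the thresholds. Smooth muscle-like cells are higher than pericyte-like cells in 7 of 10 genes, whereas Acta2 and Tagln are lower in brain mural-like than in lung pericyte-like cells.

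Pericyte-like cells in turn carried a subset of the genes. Over matrix fibroblast-like cells Myh11, Tagln and Myl9 were higher and Actc1 lower, 3 and 1 of 10 (8.57% and 9.66% of genes tested). Over endothelial-like cells 5 of the 9 members tested were higher and 0 lower (8.65% and 9.79%), namely Acta2 (5.56-fold), Myh11, Tagln, Myl9 (21.4-fold) and Mylk. For the share of cells with a UMI, random UMIs were removed until each cell held 1000. Acta2 was then seen in 94.9% (88.6 to 98.3, exact binomial interval) of smooth muscle-like, 72.9% of myofibroblast-like, 30.5% of pericyte-like, 15.9% of matrix fibroblast-like and 0.610% of brain mural-like cells, with 3.77% in endothelial-like cells as the background. Without thinning, Acta2 was seen in 96.0% of smooth muscle-like and 59.2% of pericyte-like cells. Actc1 was seen in 56.6% (46.2 to 66.5) of thinned smooth muscle-like cells and in 0.270% or less of myofibroblast-like and pericyte-like cells, no more than the 0.328% of endothelial-like cells. Cnn1 was seen in 42.4% of smooth muscle-like and 4.50% of myofibroblast-like cells and in 0 of 2005 pericyte-like cells.

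Cells of 1 class were far from uniform. In smooth muscle-like cells the Acta2 level had a median of 144 counts per 10000 UMIs and ran from 0 to 428, in myofibroblast-like cells it had a median of 20.5 (0 to 133) and in pericyte-like cells of 1.86 (0 to 117). The ranges of the classes therefore overlapped, although the median smooth muscle-like cell lay above the highest myofibroblast-like and pericyte-like cell. At 1000 UMIs a cell, 87.9% of smooth muscle-like, 17.4% of myofibroblast-like, 2.14% of pericyte-like and 0.146% of matrix fibroblast-like cells showed 5 or more of the 10 genes, and 0 of 164 brain mural-like cells did. The genes did not all vary together from cell to cell. Over the 101 smooth muscle-like cells the levels of Acta2 and Tagln had a Spearman correlation of 0.852, Acta2 and Myl9 of 0.798 and Tagln and Myl9 of 0.777. In the same cells Myh11 stood at 0.0220 with Acta2, 0.0144 with Tagln and -0.0631 with Myl9, and the 9 pairs with Actc1 had a median of 0.0521. Elsewhere Myh11 went along more with these genes. With Acta2, Tagln and Myl9 it stood at 0.425, 0.412 and 0.348 in myofibroblast-like cells. The values were 0.679, 0.723 and 0.540 in cluster 12 and 0.154, 0.131 and 0.143 in pericyte-like cells. These values describe cells that share 1 library and their depth, and the scarcer genes have few UMIs per cell.

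**Figure D3:**
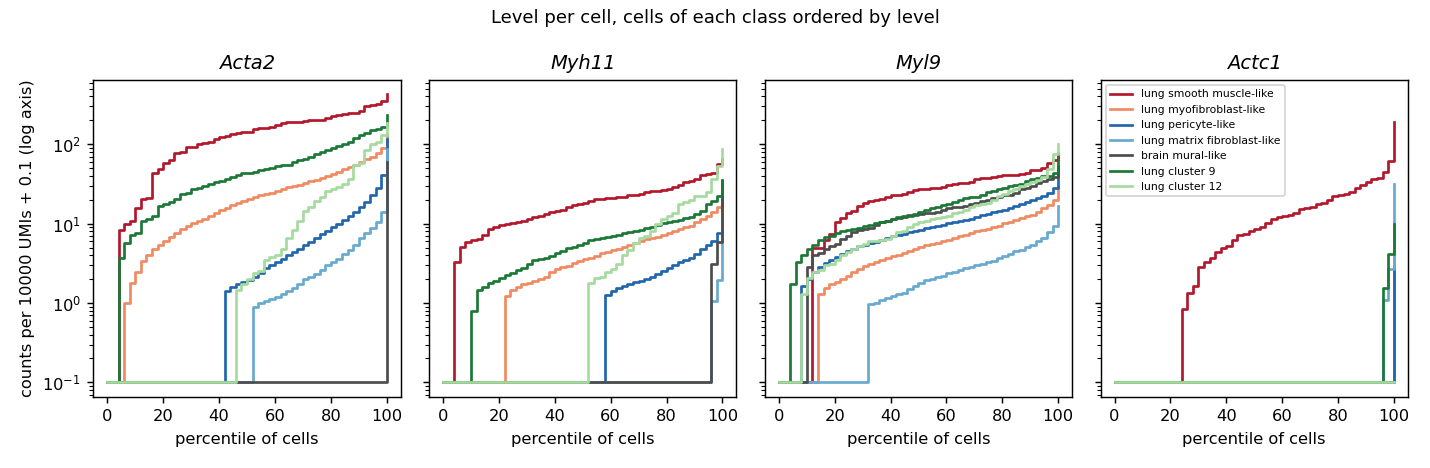
Level per cell of Acta2, Myh11, Myl9 and Actc1 (y axis, counts per 10000 UMIs plus 0.1 on a log axis) against the percentile of cells ordered by level (x axis), 1 line per class or cluster. Acta2 sits at a median of 144 in smooth muscle-like cells and 20.5 in myofibroblast-like cells, and Actc1 leaves the floor in 76.2% of smooth muscle-like cells but in few cells of any other class.

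Actc1 had the narrowest distribution, and heart muscle is its best known site, so cardiac genes were read beside it. The smooth muscle-like cells held 7 of 8 listed cardiac genes at 706 CPM in sum (Nppa at 0), against 5.53 CPM in pericyte-like and 180 CPM in matrix fibroblast-like cells. Of the 361 cardiac UMIs, 330 lay in 2 cells, which were also the only 2 of 101 with 3 or more of these genes. Actc1 had 800 UMIs in 77 cells, of which 43 lay in those 2 cells and 137 in the highest cell. The 5 highest cells held 35.8% of the Actc1 UMIs and the 10 highest 49.5%. In the 88 cells without any cardiac gene, 65 (73.9%) had Actc1, at 1255 CPM. With the 13 cells carrying a cardiac gene left out, 7 members were still higher than in pericyte-like cells and 0 lower (6.57% and 6.02% of genes tested), with a median ratio of 23.8. The smooth muscle-like cells held 82.1% of the Actc1 UMIs of the lung library, against 39.1% of Lmod1, 43.0% of Cnn1 and 20.1% of Acta2, of which myofibroblast-like cells held 46.1%.

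For most of these proteins a nonmuscle relative does the same work in other cells, and the balance within a family can be read in 1 class without scaling by the library. Each UMI stands for 1 transcript end, so no length scaling was applied. The muscle actins (Acta2, Actg2, Actc1 and Acta1) made up 71.7% of all actin UMIs in smooth muscle-like cells, 34.5% in myofibroblast-like, 7.07% in pericyte-like, 6.05% in matrix fibroblast-like and 0.709% in brain mural-like cells. Myh11 made up 73.9% of the myosin II heavy chains in smooth muscle-like, 39.7% in myofibroblast-like, 18.7% in pericyte-like and 6.77% (4.06 to 10.48) in brain mural-like cells. Among the regulatory light chains, Myl9 made up 80.3% in smooth muscle-like and 67.9% (65.0 to 70.8) in brain mural-like cells but 37.5% in myofibroblast-like and 39.5% in pericyte-like cells. Tagln was the main transgelin in all 3 lung contractile classes, at 96.3% in smooth muscle-like, 87.9% in pericyte-like and 83.3% in myofibroblast-like cells, and 2.90% in brain mural-like cells. Cnn1 reached 44.96% of the calponins in smooth muscle-like cells and 7.41% or less elsewhere.

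**Figure D4:**
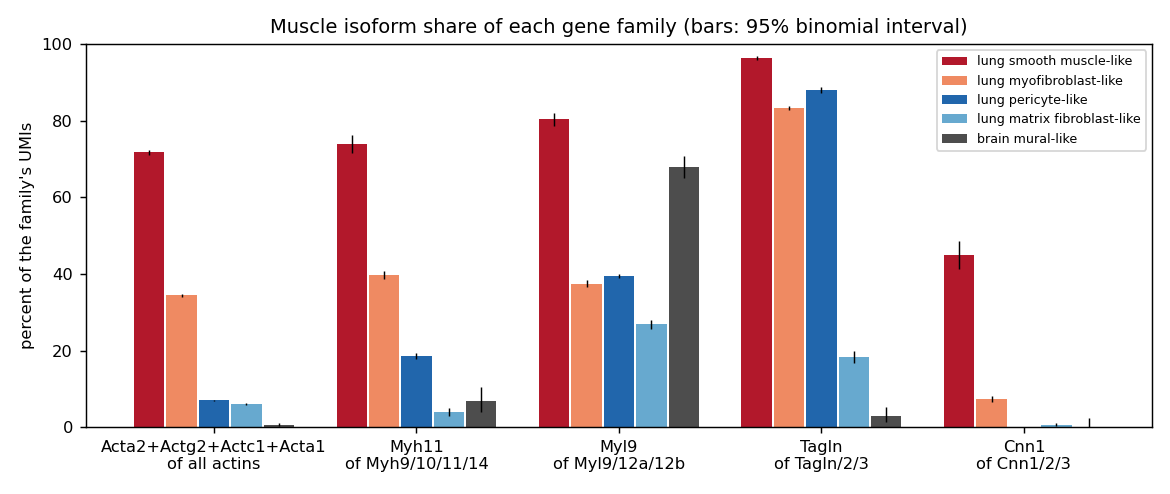
Share of the smooth muscle (or muscle) member within 5 gene families (x axis) as percent of the family's UMIs (y axis), bars coloured by class, with 95% binomial intervals for counting error. Brain mural-like cells reach 67.9% for Myl9 but 2.90% for Tagln and 0.709% for the muscle actins. Smooth muscle-like cells are the highest of the classes drawn in all 5 families. In lung cluster 9, which is not drawn, Tagln made up 97.7%.

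Among the unnamed lung clusters, cluster 9 (188 cells) came nearest to the smooth muscle-like cells in the summed level of the members. By markers it scored as pericyte-like (2.25, against 0.54 for the smooth muscle list). It stayed unnamed because Fabp7, a marker of the neural list, was among its leading genes and no pericyte marker was. Its leading genes were Fabp7, Parm1, Adora1 and Rgs7bp, its pericyte list summed to 12029 CPM against 23674 CPM in pericyte-like cells, and its smooth muscle list to 962 CPM. Acta2 stood at 5542 CPM there, Tagln at 3870, Myl9 at 1738, Mylk at 764, Myh11 at 660, Actg2 at 488 and Lmod1 at 191 CPM. Over pericyte-like cells 7 members were higher and 0 lower (3.37% and 2.21% of genes tested), with a median of 8.30 against 1. Smtn was at 0.429 (0.332 to 0.547), short of the threshold but below 1. Smooth muscle-like cells exceeded cluster 9 in 3 members, Actc1 (70.0-fold), Cnn1 (45.7-fold) and Lmod1 (4.68-fold), and was lower in 0 (4.04% and 6.30% of genes tested). Cluster 9 thus carried the actin, transgelin and myosin genes above the pericyte-like level, with 22.3 CPM of Actc1 and 14.9 CPM of Cnn1. These last levels rest on 24 Actc1 UMIs in 9 cells, 83.3% of them in 5, and 16 Cnn1 UMIs in 13 cells.

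Cluster 12 (112 cells) showed another combination. It scored close on the pericyte and smooth muscle lists and was left unnamed, with Rgs5, Steap4, Procr, Tesc and Lin7a leading. The smooth muscle markers differed both ways between it and the smooth muscle-like cells. Olfr558 had a UMI in 42.9% of its cells against 5.0%, Nrip2 in 30.4% against 1.0%, Tesc in 26.8% against 2.0% and Casq2 in 14.3% against 0, whereas Map3k7cl was in 23.2% against 68.3%, Nexn in 18.8% against 77.2% and Sncg in 4.5% against 9.9%, and Pln, Ntrk3 and Itih4 were at 0. Acta2 was at 2241 CPM, Tagln at 1700, Mylk at 1054, Myh11 at 909 and Lmod1 at 155 CPM, but Actg2 was at 18.9 and Cnn1 at 5.7 CPM, and Actc1 had 0 UMIs. Myh11 made up 69.3% of its myosin II heavy chains, near the 73.9% of the smooth muscle-like cells. Over pericyte-like cells Myh11 (6.48-fold), Lmod1 (22.9-fold) and Cnn1 (3 against 7 UMIs, with a ratio interval of 1.42 to 37.2) were higher and Smtn (0.215) lower, 3 and 1 of 10 (5.22% and 3.25% of genes tested). The cells of cluster 12 were mixed. The 62 with an Acta2 UMI had Myh11 at 1464 CPM, Lmod1 at 250 CPM and the smooth muscle list at 2285 CPM, and the 50 without had Myh11 at 88.9 CPM, Lmod1 at 14.04 CPM and the list at 515 CPM. The split used Acta2 itself and was made after its values were seen, so it is a description, and median depth was 5044 and 4473 UMIs. In the 27 cells with 10 or more Acta2 UMIs, Actc1 was still at 0 and Actg2 at 51.3 CPM, against 1564 and 1906 CPM in the smooth muscle-like cells. Over the whole of cluster 12, smooth muscle-like cells were higher in 7 of 10 members and lower in 0 (4.90% and 6.45% of genes tested).

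Clusters 6 (303 cells) and 8 (189 cells) were shallow, with a median of 1198 and 1721 UMIs and 24.4% and 21.9% mitochondrial UMIs, and the members differed in their ratios within them. Over the 2 large myofibroblast-like clusters, cluster 8 was lower in 5 of 9 members tested and higher in 0 (10.7% and 3.89% of genes), with Acta2 at 0.103, Tagln at 0.130, Myl9 at 0.136, Cnn1 at 0.170 and Actg2 at 0.227. In the same cells Myh11 (1.30), Mylk (1.01) and Smtn (1.46) were not lower, and Lmod1 was at 0.399 (0.129 to 0.944), short of the threshold but below 1. Over pericyte-like cells, cluster 6 was lower in Acta2 (0.242) and Myl9 (0.0882) and higher in 1 member, Cnn1 on 3 against 7 UMIs (8.63% and 6.44% of genes), while Tagln was at 0.323 (0.253 to 0.406), Mylk at 0.880, Smtn at 1.27, Myh11 at 1.97 and Lmod1 at 3.29. Malat1, a nuclear RNA, was at 109666 CPM in cluster 6 and 202251 CPM in cluster 8 against 37751 CPM in pericyte-like cells and 60445 CPM in the 2 myofibroblast-like clusters, and Gapdh at 22.3 and 17.9 CPM against 151 and 122 CPM. The part of these RNA differences in the members' ratios was not tested.

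Brain mural-like cells carried a narrow part of the list. Over brain endothelial-like cells 5 of the 6 members tested were higher and 0 lower (8.0% and 7.98% of 10421 genes tested), with a median of 27.9 against 1.01. Myl9 was 56.2-fold (39.8 to 81.8) and Mylk 15.4-fold higher on ample counts, whereas Acta2 rested on 15 against 1 UMIs and Tagln on 10 against 0. Of the 15 Acta2 UMIs, 14 lay in 1 cell, and Acta2 was found in 2 and Myh11 in 10 of 169 cells. The marker list of brain pericytes had 15359 UMIs in these cells and that of brain smooth muscle 269, so a comparison of the lists cell by cell nearly always favours the first and assigns no cell to a type. In 15 of the 169 cells 3 or more smooth muscle list genes had a UMI, and in 1 cell, the one with the 14 Acta2 UMIs, that list had at least as many UMIs as the pericyte list. Sorting by GFP can set which mural cells were present. Mural-like cells held 73.1% of the Myl9 and 64.4% of the Mylk UMIs of the brain library and 18 of its 24 Myh11 UMIs, while 48.1% of its Smtn UMIs lay in endothelial-like cells, where Smtn was at 91.2 CPM against 79.2 CPM, a ratio of 0.868 (0.582 to 1.27).

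Set beside lung pericyte-like cells, brain mural-like cells were higher in 0 of the 9 members tested and lower in 2 (7.95% and 4.23% of 13014 genes), with a median ratio of 0.530 against 1.02. Acta2 was 19.2-fold (11.6 to 34.3) and Tagln 23.8-fold (12.96 to 49.8) higher in lung pericyte-like cells, and Myh11 3.64-fold. Without the 1 cell that held 14 Acta2 UMIs, the mural-like over pericyte-like ratio was 0.00350 for Acta2, 0.00843 for Tagln and 0.153 for Myh11, so that the 3 genes then lay below the threshold. With marker gates applied to each cell, Actg2 fell from 0.432 to 0.0711, Actc1 to 0.245 and Lmod1 from 2.21 to 0.249, each then below the threshold. Myl9 went the other way, the interval of its ratio running from 1.39 to 1.62, and Mylk was at 0.744. Actg2, Actc1 and Cnn1 had 0 UMIs in 467408 UMIs of brain mural-like cells, which allows up to 6.42 CPM and so gives Actg2 a level at least 2.32-fold lower than in lung pericyte-like cells and sets no bound for the other two. The brain cells were shallower, with a median of 2559 UMIs against 5304. After thinning, Myl9 was seen in 74.4% of brain mural-like and 54.7% of lung pericyte-like cells.

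The brain library held more Acta2 outside its mural-like cells than in them. The 125 ependymal-like cells, which line the ventricles and bear cilia, carried 108 of its 133 Acta2 UMIs (81.2%) in 27 cells and 75 of its 139 Tagln UMIs (54.0%), 86.7% of the latter in 5 cells. Acta2 was at 143 CPM and Tagln at 99.5 CPM there, 4.46-fold and 4.65-fold above mural-like cells, while Myh11 and Cnn1 had 0 UMIs. Myl9 was 21.5-fold and Mylk 59.0-fold higher in mural-like cells. Of 7 members tested, ependymal-like cells were higher in 2 and lower in 4 (15.2% and 10.7% of genes). Mural marker UMIs numbered 7 in the 27 cells with Acta2 and 33 in the other 98.

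Genes of the same machinery were then read in lists drawn up by role. Of 18 thin filament and anchorage genes, 12 were higher and 0 lower in the smooth muscle class relative to the pericyte class, at a median ratio of 6.37 (6.66% and 6.39% of all genes tested were higher and lower). Ldb3, a Z-disc adaptor, was 585-fold higher on 57 against 2 UMIs, Pgm5 133-fold, and Nexn and Synm, also naming markers of the class, 12.7-fold and 12.3-fold. Of the 11 nonmuscle relatives 1, Tagln2 (6.37-fold), was higher and 0 lower, with a median of 1.02. They went both ways, the intervals of 4 lying above 1 and those of 5 below it, with Myh10 at 3.63, Myl6 at 2.86 and Myl12b at 0.382.

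The serum response factor list had 2 genes higher and 1 lower of 8 tested (6.66% and 6.39% of all genes). Myocd, the muscle-restricted cofactor, was 523-fold higher on 51 against 2 UMIs and Gata6 96.1-fold, while Srf itself was at 1.38 and Mkl1, another cofactor, at 0.175. Among 14 genes of calcium and cGMP control 4 were higher and 5 lower against the same background, but 1 of the 4 and 2 of the 5 had served to name a class. Pln (41.0-fold on 10 against 5 UMIs, a smooth muscle naming marker) and the potassium channel Kcnma1 (29.3-fold) were higher, and the angiotensin receptor Agtr1a (0.0199, 2 against 2061 UMIs) and the cGMP phosphodiesterase Pde5a (0.0573) lower, as were the pericyte naming markers Gucy1a3 (0.128) and Gucy1b3 (0.116). Of 8 sarcomere genes tested 7 were higher against that background, led by Myl7, Tnnt2, Tnni3 and Myh6, whose UMIs lay mostly in the cells described above and which also serve as cardiac naming markers. Myofibroblast-like over matrix fibroblast-like cells showed 4 thin filament genes higher and 1 lower of 18 (6.24% and 6.18% of all genes), and 0 of 11 nonmuscle genes past the threshold, although the intervals of 9 lay above 1 (median 2.05). In that comparison the serum response factor list had 1 gene higher, Myocd (47.5-fold, 254 against 4 UMIs), and 2 lower of 8, Gata6 (0.108) and Klf4 (0.157), and the sarcomere list 0 higher and 6 lower of 8, all 6 of them cardiac naming markers. Brain mural-like cells were higher than brain endothelial-like cells in 9 of 11 calcium and cGMP genes and lower in 0 (8.0% and 7.98% of all genes), and of these the guanylate cyclase subunits Gucy1a3 (117-fold) and Gucy1b3 (128-fold) and the endothelin receptor Ednra (146-fold) ranked high. There the thin filament list had 4 genes higher and 5 lower of 16, with a median of 0.636, and the nonmuscle list 1 higher and 0 lower of 11. Against lung pericyte-like cells, 2 of 16 thin filament genes were higher and 6 lower in brain mural-like cells (7.95% and 4.23% of all genes), among the latter Tpm2 (0.169), Csrp1 (0.0362) and Synpo2 (0.106).

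**Figure D5:**
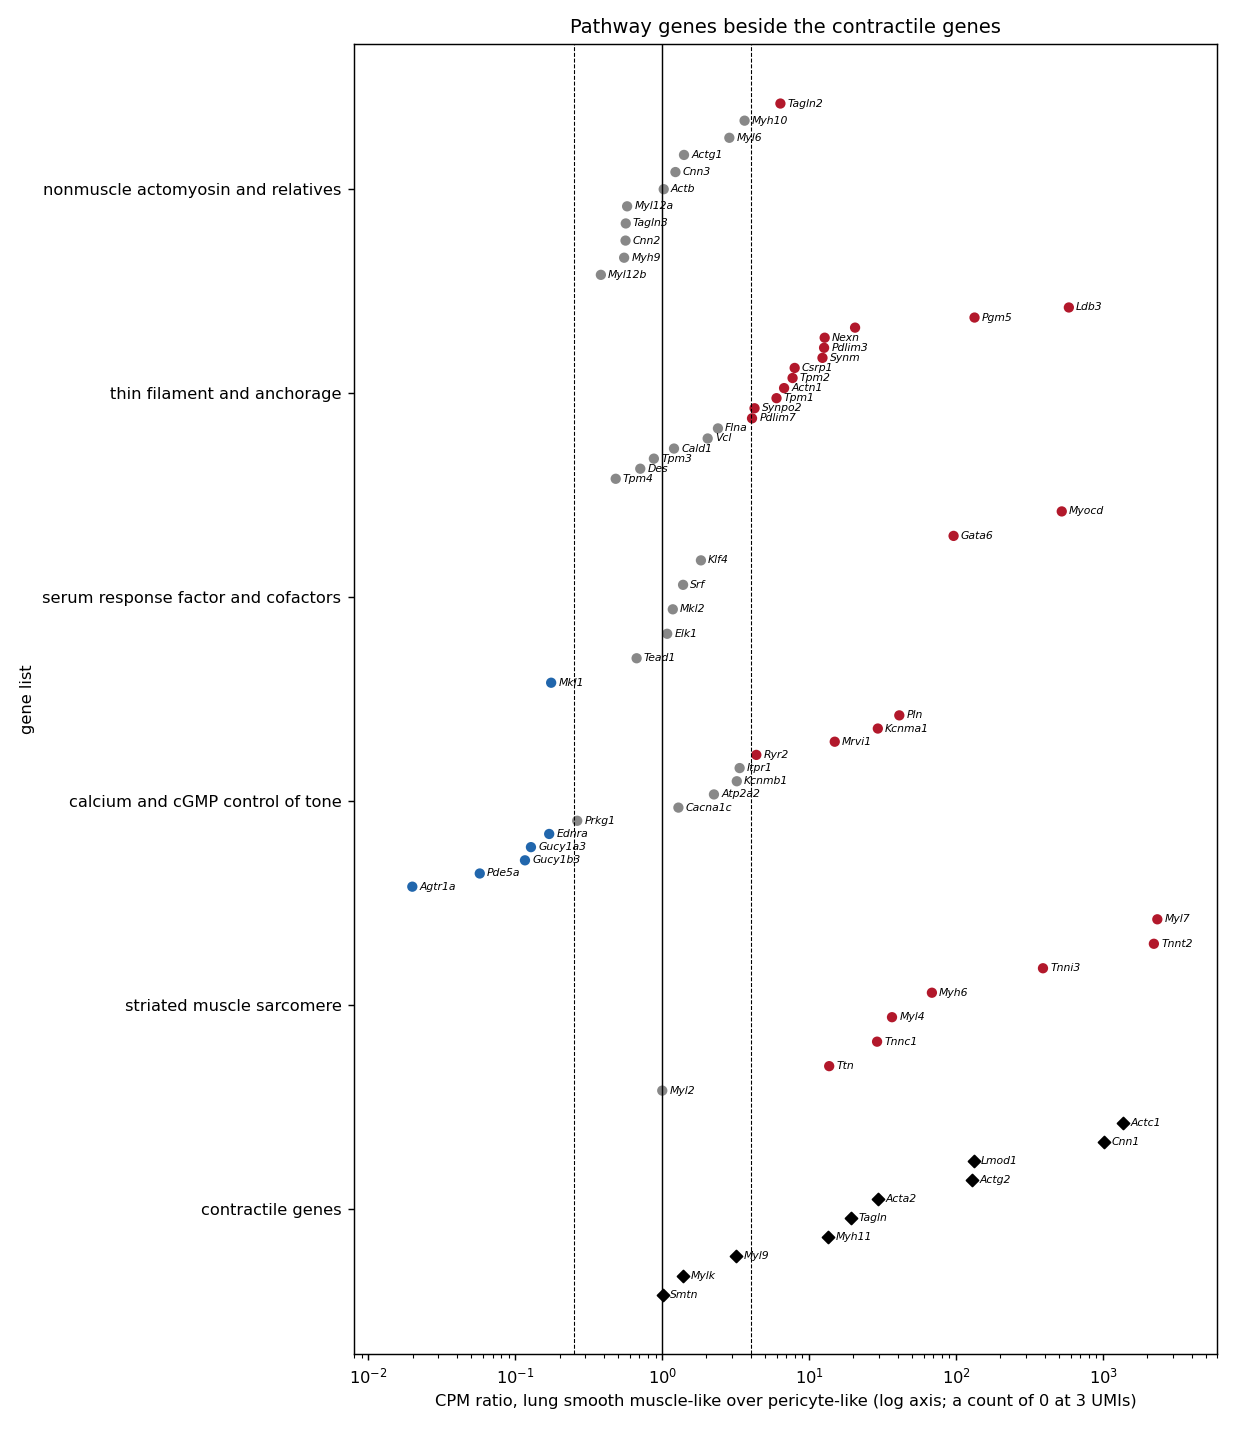
CPM ratio of smooth muscle-like over pericyte-like cells (x axis, log scale) for genes of 5 pathway lists (y axis) and the 10 contractile genes (diamonds), 1 point per gene (1 without its name) with at least 10 UMIs over both classes, red over 4-fold, blue under the inverse of 4, grey between, solid line at 1 and dashed lines at the thresholds. Nonmuscle relatives lie on both sides of 1, from 0.382 to 6.37, and 12 of 18 thin filament genes lie beyond the upper threshold.

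Among 14924 ranked genes, the ones whose log2(CPM + 10) over 17 classes (8 lung, 9 brain) was most like the mean of the members were Nexn (Pearson r of 0.904), Bdnf (0.902), Gm26632 (0.901), Tpm2 (0.895), Fblim1 (0.886), Myocd (0.873), Ror1 (0.869), 1700061G19Rik (0.867), Jph2 (0.865) and Gm26169 (0.857). The members' own r with that mean, to which each contributes, ran from 0.702 for Smtn to 0.958 for Myh11. The classes share 2 libraries, and the smooth muscle-like cells are an end point for nearly all of these genes, so the r describes this set of classes. Bdnf, a neurotrophin, stood at 137 CPM in smooth muscle-like, 54.3 CPM in myofibroblast-like, 52.8 CPM in pericyte-like and 6.21 CPM in matrix fibroblast-like cells and at 0 in brain mural-like cells. Tpm2, a muscle tropomyosin, stood at 4103, 777, 532, 186 and 89.9 CPM in the same classes.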

How the data were processed

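Cells were sorted for Nes-GFP, and libraries were made with droplet 3′ chemistry (10x, version 3 per the methods). The authors deposited 1 table of raw UMI counts per gene and barcode for each library. The submitters' processing notes name UMI-tools 1.0.0, STAR 2.7.1a, featureCounts 1.6.4, bcl2fastq 2.19.1.403 and mm10. Such counts reflect transcript 3′ ends and are not scaled by length.

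The members and gene lists were chosen with earlier results of these data known. Cells with over 200 and under 4000 genes and under 40% mitochondrial UMIs were kept, as the study's methods state, and the doublets called by Scrublet (Scanpy 1.11.5) were not removed. Each library was clustered with Seurat 5.3.0 in R 4.3.3 (2000 variable genes without members, pathway or cell cycle genes, 20 principal components, resolution 0.8). A cluster was named from a marker list whose mean log2(CPM + 10) stood at least 1 above the mean over clusters and 0.5 above the next list, with 3 or more markers in at least 20% of cells. It stayed unnamed when its median depth was low with none of its markers among the 10 leading genes, or when those genes were of another class.

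UMIs were summed per class with Python 3.11.15, NumPy 2.4.6 and SciPy 1.17.1 and scaled to CPM. Levels have exact Poisson, ratios exact conditional binomial and shares Clopper-Pearson 95% intervals, all for counting error only. Shares were taken after thinning to 1000 UMIs, shallower cells being left out. Genes with at least 10 UMIs over both classes were compared. Named were all members, up to 4 genes per pathway list with the most extreme ratio of smooth muscle-like over pericyte-like cells, and the 10 genes most like the members' mean. Of the pathway genes, 1 list and 1 gene of another list are not reported here. Tpm2, Csrp1, Synpo2, Srf, Ednra, Gucy1a3, Gucy1b3, Malat1 and Gapdh were added after their values were seen. The calling of ratios was checked on simulated counts. edgeR 4.0.16 served only for scaling factors. Positions are from GENCODE M21 and promoters from RefSeq. Figures were drawn with matplotlib 3.10.9.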

Additional observations from a re-analysis of the deposited data

Results flagged for a closer look

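The Smtn ratio to endothelial-like cells lay above 1 in lung and below 1 in brain, neither past 4-fold. It was 3.72-fold higher in lung pericyte-like than in lung endothelial-like cells and at a ratio of 0.868 (0.582 to 1.27) in brain mural-like over brain endothelial-like cells. The difference between the 2 ratios was not tested, the brain interval spans 1, and each tissue is 1 library.

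Barcodes outside the filter on genes and mitochondrial share entered no comparison. The members summed to 26.7 CPM in the 489 such brain barcodes and to 3532 CPM in the 373 such lung barcodes.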

How the results depend on the processing

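The count of members higher in smooth muscle-like than in pericyte-like cells was 7 and ranged from 7 to 8 over the settings that gave a value, 8 coming from single-cell gates that left 5 smooth muscle-like cells. No smooth muscle-like class was found without the upper limit of genes per cell or at resolution 0.4, so that count has no value there. The count for myofibroblast-like over matrix fibroblast-like cells was 7 and ranged from 6 to 7, Mylk falling under the threshold where it was 6. No member was higher in brain mural-like than in lung pericyte-like cells under any setting, whereas the number lower was 2 and rose to 6 with marker gates applied to single cells, 5 with a count of 0 kept at 0, 4 at resolution 0.4 or with clusters 9 and 12 among the pericyte-like cells, and 3 without the upper limit of genes, with TMM scaling or without the 1 mural-like cell that held 14 Acta2 UMIs. The 5 include Cnn1, which at 0 against 7 UMIs is under the minimum of 10 UMIs. Of the ratios of single members, 272 stayed within their interval and 77 moved beyond it. No ratio past 4-fold changed direction, while some under it crossed 1: Lmod1 in brain mural-like over lung pericyte-like cells went from 2.21 to 0.249 with single-cell gates and 0.506 with clusters 9 and 12 added, and Smtn in smooth muscle-like over pericyte-like cells went from 1.01 to 0.825 under 20% mitochondrial counts and 0.997 without doublets. Settings added after seeing the data left out cells with a cardiac gene, moved clusters 8, 9 and 12, left out the cycling and high-mitochondrial clusters or kept a count of 0 at 0.

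Without thinning, the share of cells with any member was 99.0% in pericyte-like, 99.64% in myofibroblast-like, 92.1% in matrix fibroblast-like and 98.2% in brain mural-like cells, against 86.9%, 95.7%, 47.5% and 82.9% with it. The thinned Myh11 share of smooth muscle-like cells was 70.7% in the draw used and had a median of 78.8% over 100 draws. No paired analysis was possible because each tissue has 1 library and no test was made. Genes with few UMIs (Actc1 and Cnn1 in pericyte-like cells, Acta2 and Tagln in brain mural-like cells) have wide intervals, and differences between mice were not measured.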
